A study of Mus musculus with 8 samples.

Results

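The 8 genes Scx, Tnmd, Mkx, Thbs4, Postn, Tnc, Col12a1 and Col14a1, which mark tendon, ligament and other fibrous tissue, were followed through the nuclei of the petrous temporal bone (PTB). They were chosen by name from the 32285 genes of the count tables, and all 8 were present. The PTB is the skull bone that houses the inner ear and borders the paraflocculus/flocculus (PF/F), a pair of cerebellar lobules. Nuclei were isolated from PTB and PF/F of wild-type (WT) and Tbx1+/- mice on postnatal day 5.5. Tbx1+/- mice carry 1 inactive allele of Tbx1, a T-box transcription factor gene, in every cell, on a C57BL/6J background shared with the WT mice, and the loss is not limited to bone. Each library pooled 5 mice, so that the 4 PTB libraries (2 WT and 2 Tbx1+/-, 1 of each genotype in each of 2 batches) were the replicates, and nuclei and mice were not.

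Tendons and ligaments are bands of aligned collagen made by fibroblasts whose precursors express the transcription factor Scx, and Mkx (Mohawk) is a homeobox factor that acts in the same lineage. Tnmd (tenomodulin) is a membrane protein of maturing tendon cells, and Thbs4 (thrombospondin 4) is a matrix protein concentrated where muscle meets tendon. Postn (periostin) and Tnc (tenascin C) are matricellular proteins of fibrous layers such as the periosteum, and Tnc is also made in developing cartilage and bone and by brain astroglia. Col12a1 and Col14a1 encode fibril-associated collagens, which sit on the surface of collagen fibrils.

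The authors' annotation of the PTB holds 31076 nuclei in 15 types. These are the connective tissue types CT1 to CT4, CP1 to CP6, matured chondrocytes, a class named hypertrophic chondrocyte/Osteoblasts (the hypertrophic class below), osteoblasts, matured osteoblasts/osteocytes and osteoclasts. Levels are counts of unique molecular identifiers (UMIs) per 1000000 UMIs (CPM) of the summed nuclei of a type in 1 library, and means are over the 4 PTB libraries with their SD. Differences between types are descriptions without a test, since the types came from clustering on the expression of these genes among others. Osteoclasts, which arise from blood-forming cells and are not a known source of these proteins, served as the reference for UMIs that free RNA can carry into any droplet.

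The PTB libraries held 66835028 to 88677309 UMIs, of which 33515253 to 43752949 were in annotated nuclei, and annotated nuclei had a median of 3853 to 4758 UMIs. Pairs of PTB libraries shared 45 to 82 barcodes, 11 to 26 of them annotated in both. Tbx1 was at 38.9 CPM in WT and 26.3 CPM in Tbx1+/- mice of batch 1, and at 39.4 and 35.7 CPM in batch 2. In CP6, the type with most Tbx1, it was at 77.9 and 54.7 CPM in batch 1 and at 96.6 and 98.0 CPM in batch 2. There it was not lower in Tbx1+/- mice of batch 2. The markers Col3a1, Vcan and Gpc3 together reached 3756 CPM in CT1 and 1938 CPM in CT2, but 1212 CPM in CT3 and 596 CPM in CT4, against 1319 CPM in CP1 and 422 CPM in osteoclasts. All 3 markers had UMIs in every type. CT3 and CT4 did not exceed CP1 in their summed level, so that the CT types are called here by their cluster names. The hypertrophic class carried the osteoblast markers Sp7, Alpl, Mmp13, Dmp1 and Bglap at 3024 CPM and the chondrocyte markers Sox9, Col2a1 and Acan at 553 CPM, compared with 411 CPM of the latter in osteoclasts.

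Positions are in the GRCm38 assembly. Scx lies at chr15:76457452-76459458 on the plus strand, inside the opposite-strand gene Bop1. Tnmd is at chrX:133850980-133865577 (plus), Thbs4 at chr13:92751590-92794818 (minus) and Postn at chr3:54361109-54391037 (plus). Tnc is at chr4:63959785-64047015 (minus), Col12a1 at chr9:79598991-79718831 (minus) and Col14a1 at chr15:55307750-55520803 (plus). Nuclear RNA is rich in introns and the reads were counted over exons and introns, so that most of each of these spans could contribute UMIs.

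The sequences just before the start sites are shown for the 4 members with an entry in the promoter table of RefSeq (GRCm38.p6), since 3 of them had their highest level in a CT type and the other in the hypertrophic class. They read 5′ to 3′ along the gene's strand and end before the more upstream of the RefSeq and GENCODE start sites. Capitals mark CANNTG, the E-box that basic helix-loop-helix factors such as Scx bind, and TATAAA, the TATA box, each searched on both strands.
Tnmd (chrX:133850758-133850978, plus strand): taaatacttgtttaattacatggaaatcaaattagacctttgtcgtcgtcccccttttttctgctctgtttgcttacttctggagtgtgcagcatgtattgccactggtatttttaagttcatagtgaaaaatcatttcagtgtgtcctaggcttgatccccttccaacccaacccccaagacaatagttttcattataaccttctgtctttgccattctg
Thbs4 (chr13:92794819-92795068, minus strand): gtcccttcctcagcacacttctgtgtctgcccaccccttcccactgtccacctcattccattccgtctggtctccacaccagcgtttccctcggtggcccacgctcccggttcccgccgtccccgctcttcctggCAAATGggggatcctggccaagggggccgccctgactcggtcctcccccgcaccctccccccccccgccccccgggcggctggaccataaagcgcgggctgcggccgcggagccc
Postn (chr3:54360857-54361106, plus strand): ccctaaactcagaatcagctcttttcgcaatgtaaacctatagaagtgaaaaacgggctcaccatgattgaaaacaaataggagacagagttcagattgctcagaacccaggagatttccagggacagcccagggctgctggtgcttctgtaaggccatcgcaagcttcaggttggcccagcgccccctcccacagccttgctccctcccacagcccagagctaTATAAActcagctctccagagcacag
Tnc (chr4:64047016-64047265, minus strand): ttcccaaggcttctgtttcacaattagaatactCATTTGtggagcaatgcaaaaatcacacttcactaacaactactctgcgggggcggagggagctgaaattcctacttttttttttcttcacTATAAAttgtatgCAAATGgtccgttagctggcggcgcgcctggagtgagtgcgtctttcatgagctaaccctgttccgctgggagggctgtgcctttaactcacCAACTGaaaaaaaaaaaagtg
The Tnmd and Postn stretches held no CANNTG, the Thbs4 stretch held 1 and the Tnc stretch held 3, while TATAAA occurred in the Postn and Tnc stretches. Over the first 250 bases of all 32851 promoters in the table, CANNTG occurred in 66.2% and TATAAA in 12.4%. G and C made up 38.9% of the Tnmd stretch and 70.8% of the Thbs4 stretch. A match describes these letters only.

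No single type had the highest level of all 8 genes. The highest mean levels were in CT types for 5 members (Tnmd and Col12a1 in CT3, Thbs4, Postn and Col14a1 in CT1), in CP types for 2 (Mkx in CP2, Scx in CP5) and in the hypertrophic class for Tnc. Of the 15253 genes at 5 CPM or more in at least 1 type, 24.9% were highest in a CT type, 26.6% in a CP type and 4.69% in the hypertrophic class. The members were at least 2-fold above osteoclasts in all 4 libraries in a median of 4 of the 14 other types, and the median over all those genes was 0 types. Osteoclasts were chosen as the reference for the members, whereas 17.4% of all those genes were highest in osteoclasts. The difference between these medians therefore follows in part from the choice of reference.

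**Figure D1:**
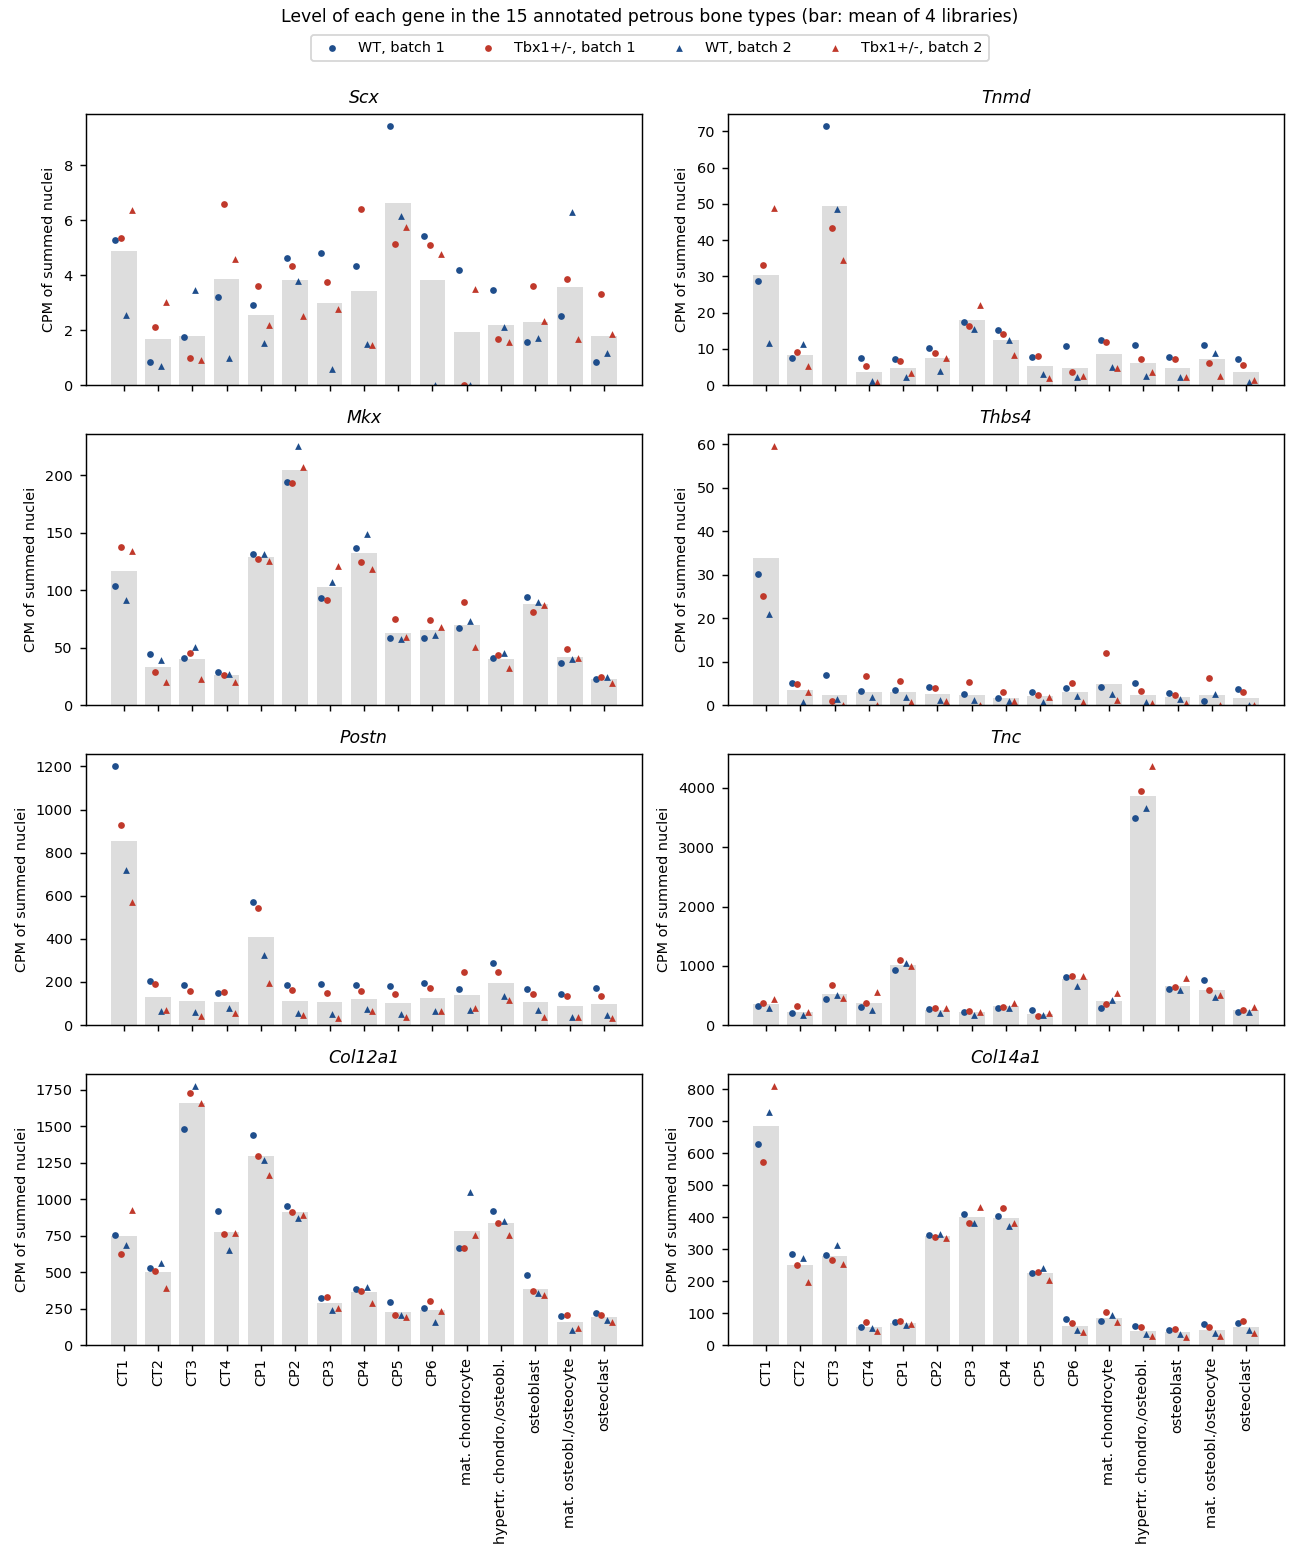
Level of each gene in CPM of summed nuclei (vertical axes, linear and from 0) in the 15 annotated PTB types (horizontal axis). Points are the 4 libraries (blue WT, red Tbx1+/-, circles batch 1, triangles batch 2) and bars their means. Thbs4 stands highest in CT1 (33.9 CPM) and Tnc in the hypertrophic class (3868 CPM), whereas Mkx is spread over the CP types, CT1, osteoblasts and matured chondrocytes.

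Scx, an early factor of the tendon lineage, had few UMIs in every annotated type. Its highest level was in CP5, at 9.41 CPM in WT and 5.14 CPM in Tbx1+/- mice of batch 1, and 6.15 and 5.74 CPM in batch 2, from 48 UMIs in all. CT1 followed at 5.29, 5.35, 2.55 and 6.37 CPM (52 UMIs), and CP5 was above CT1 in only 2 of 4 libraries. Osteoclasts were at 0.836, 3.31, 1.16 and 1.84 CPM, and no type was at least 2-fold above them in all 4 libraries. The order of CP5 and CT1 was therefore within the spread between libraries.

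Of the 67 PTB barcodes with 2 or more Scx UMIs, 52 were not annotated, among them the highest count of 8 UMIs in a barcode led by the mesenchyme markers Pdgfra, Col1a1, Col1a2 and Col3a1. A threshold at a fixed number of UMIs takes in more of the deep barcodes. The 30 led by mesenchyme markers had a median of 15199 UMIs over all genes and Scx at 57.4 CPM. Another 8 were led by chondrocyte markers (107 CPM, median of 14731 UMIs) and 8 by neuron markers (45.9 CPM, median of 37522 UMIs, up to 7 Scx UMIs). The 5 such nuclei in CT1 had a median of 3243 UMIs and Scx at 381 CPM, and they also carried Tnmd at 724 CPM and Thbs4 at 686 CPM. Of these nuclei, 4 were in the WT and 1 in the Tbx1+/- library of batch 1. All these barcodes were chosen for their Scx UMIs. Their Scx levels follow from that choice and from depth, and do not compare the groups. Reads of Scx and of the overlapping Bop1 come from opposite strands.

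Mkx, the other transcription factor, lies at chr18:6934518-7004780 (minus strand). It was highest in CP2, at 194 and 193 CPM in WT and Tbx1+/- mice of batch 1 and 225 and 207 CPM in batch 2, a mean of 205 ± 14.8 CPM (SD, n = 4). CP4 (132 ± 13.4 CPM), CP1 (129 ± 3.26 CPM), CT1 (117 ± 22.5 CPM) and CP3 (103 ± 13.7 CPM) followed. CP2 was above CP4 in 4 of 4 libraries by at least 57.4 CPM, but CP4 was above CP1, and CP1 above CT1, in only 2 of 4, so these neighbours did not differ beyond their spread. Osteoclasts had 22.6 ± 2.44 CPM, and 9 of the 14 other types were at least 2-fold above them in all libraries. Within the CT types, CT1 stood above CT2 (33.0 CPM), CT3 (39.9 CPM) and CT4 (25.7 CPM).

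A Mkx UMI was found in 46.7 ± 4.31% of CP2 nuclei and in 9.03 ± 1.38% of osteoclasts, at medians of 4125 and 5788 UMIs per nucleus. After each nucleus was thinned to 2000 UMIs, which left out 96 CP2 nuclei and 37 osteoclasts, the shares were 28.7% and 2.98%. Of the Mkx UMIs in annotated nuclei, CP2 gave 25.0% and osteoblasts 20.5%, while they held 10.9% and 20.9% of all UMIs.

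Tnmd was highest in CT3, at 71.3 CPM in WT and 43.4 CPM in Tbx1+/- mice of batch 1, and 48.5 and 34.4 CPM in batch 2, from 235 UMIs. CT1 followed at 28.6, 33.0, 11.5 and 48.8 CPM, the last from 23 UMIs in 118 nuclei. CT3 was above CT1 in 3 of 4 libraries and below it in the Tbx1+/- library of batch 2. CP3 (17.9 ± 2.95 CPM) and CP4 (12.5 ± 3.03 CPM) were the other types at least 2-fold above osteoclasts (3.72 ± 3.08 CPM) in all libraries. CT4 had 3.67 CPM, no more than osteoclasts. A Tnmd UMI was found in 16.3 ± 3.17% of CT3 nuclei, 6.20 ± 2.25% of CT1 nuclei and 1.78 ± 1.23% of osteoclasts.

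Thbs4 had its highest level in CT1. This type had 30.2 CPM in WT and 25.0 CPM in Tbx1+/- mice of batch 1, and 21.0 and 59.5 CPM in batch 2, which correspond to 154, 84, 33 and 28 UMIs. The next type, matured chondrocytes, had 4.94 ± 4.86 CPM, and osteoclasts had 1.68 CPM with 0 UMIs in both batch 2 libraries. CT1 lay above the next type in 4 of 4 libraries by at least 13.0 CPM, and it was the 1 type at least 2-fold above osteoclasts in all of them. Matured chondrocytes, CT2, CP6, CP2 and the hypertrophic class also lay above osteoclasts in 4 of 4 libraries, at means of 2.40 to 4.94 CPM. CT1 gave 48.3% of the Thbs4 UMIs of annotated nuclei but 6.50% of all their UMIs. The share of CT1 nuclei with a Thbs4 UMI was 7.15 ± 2.58%, against 0.908 ± 1.05% of osteoclasts.

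Nuclei with and without Tnmd were compared in CT1 and in CT3. In CT1, 179 nuclei had a Tnmd UMI, and their median of 3521 UMIs was close to the 3436 UMIs of the other CT1 nuclei. They carried Thbs4 at 209 CPM (133 to 273 CPM over the libraries), compared with 21.6 CPM (13.8 to 39.5 CPM) in CT1 nuclei without Tnmd. The ranges did not overlap. Mkx was at 306 against 104 CPM, Postn at 1538 against 811 CPM, Col12a1 at 1348 against 704 CPM and Col14a1 at 1407 against 626 CPM, each higher in the nuclei with Tnmd in 4 of 4 libraries. Scx was at 22.0 CPM (14 UMIs) in nuclei with Tnmd and 3.34 CPM in those without, higher in 3 of 4 libraries.

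In CT3, 144 nuclei had a Tnmd UMI, at a median of 5930 UMIs against 4621 UMIs in the others. Thbs4 was at 2.62 CPM in these nuclei and at 2.24 CPM in the others, and higher in 2 of 4 libraries. Postn was lower in CT3 nuclei with Tnmd in 4 of 4 libraries (84.7 against 119 CPM). Mkx (53.9 against 36.3 CPM), Tnc (735 against 472 CPM) and Col14a1 (340 against 264 CPM) were higher with Tnmd in 4 of 4 libraries and Col12a1 (1758 against 1631 CPM) in 3 of 4, while Scx had 3 UMIs in these nuclei and was higher in 1 of 4. In CT1 Tnc was at 588 against 333 CPM, higher in 3 of 4. Differences between CT1 and CT3 in these contrasts were not tested. In osteoclasts the 30 nuclei with Tnmd held 2 Thbs4 UMIs. The 2 osteoclasts with 3 or more Tnmd UMIs had Thbs4 at 124 CPM, Postn at 620 CPM and Col14a1 at 496 CPM. The means over all osteoclasts were 1.68, 96.9 and 57.2 CPM. Some nuclei of the reference type thus also held these genes together with Tnmd. All counts of one nucleus come from 1 droplet, and doublets were not removed.

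The CT1 nuclei with 3 or more Thbs4 UMIs, numbering 16, 5, 3 and 4 in the libraries, carried Postn at 2452 CPM, Col12a1 at 1469 CPM and Tnmd at 434 CPM. They were 28 of the 33 annotated nuclei with that many Thbs4 UMIs. Beyond the annotation, 19 barcodes reached the same count, 12 of them led by mesenchyme markers.

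Postn followed Thbs4 in having its highest level in CT1, at 1200 CPM in WT and 930 CPM in Tbx1+/- mice of batch 1, and 719 and 571 CPM in batch 2. CP1 came next (570, 545, 325 and 195 CPM) and was below CT1 in 4 of 4 libraries by at least 377 CPM. These were the 2 types at least 2-fold above osteoclasts in every library. Osteoclasts themselves ranged widely, at 174, 135, 44.5 and 33.9 CPM, so that both batch 1 libraries had more Postn than both batch 2 libraries in a cell type that serves as background. The hypertrophic class had 197 ± 83.7 CPM, and the remaining types had 88.8 to 140 CPM on average.

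Tnc was the 1 member with its highest level outside the CT and CP types. The hypertrophic class had 3494 CPM in WT and 3953 CPM in Tbx1+/- mice of batch 1, and 3663 and 4363 CPM in batch 2. CP1 (1013 ± 71.6 CPM), CP6 (780 ± 83.2 CPM) and osteoblasts (655 ± 93.8 CPM) followed in this order in 4 of 4 libraries. Osteoclasts had 250 ± 40.7 CPM. The hypertrophic class held 55.0% of all Tnc UMIs of annotated nuclei and 13.3% of all UMIs. A Tnc UMI was found in 95.9 ± 1.40% of its nuclei and in 45.2 ± 5.98% of osteoclasts, and the shares were 92.1% and 24.1% after thinning to 2000 UMIs.

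Col12a1 was highest in CT3, at 1482 and 1727 CPM in WT and Tbx1+/- mice of batch 1 and 1773 and 1661 CPM in batch 2. CP1 (1294 ± 114 CPM) and CP2 (909 ± 35.1 CPM) followed, each below the one before in 4 of 4 libraries, and the hypertrophic class (839 ± 68.2 CPM) was below CP2 in all 4. In total 8 types were at least 2-fold above osteoclasts (191 ± 28.9 CPM) in every library. These were the 4 CT types, CP1, CP2, the hypertrophic class and matured chondrocytes.

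Col14a1, the other fibril-associated collagen, had another order of types. CT1 was highest at 630 and 572 CPM in WT and Tbx1+/- mice of batch 1 and 729 and 809 CPM in batch 2. CP3 (401 ± 24.8 CPM), CP4 (396 ± 25.4 CPM) and CP2 (341 ± 6.15 CPM) came next, and CP3 was above CP4 in only 3 of 4 libraries. CP1, CP6, CT4, the hypertrophic class, osteoblasts, matured osteoblasts and matured chondrocytes had 40.3 to 85.7 CPM, a range that includes the 57.2 ± 18.2 CPM of osteoclasts. In CP1, where Col12a1 was second highest, Col14a1 was at 69.1 ± 5.98 CPM.

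**Figure D2:**
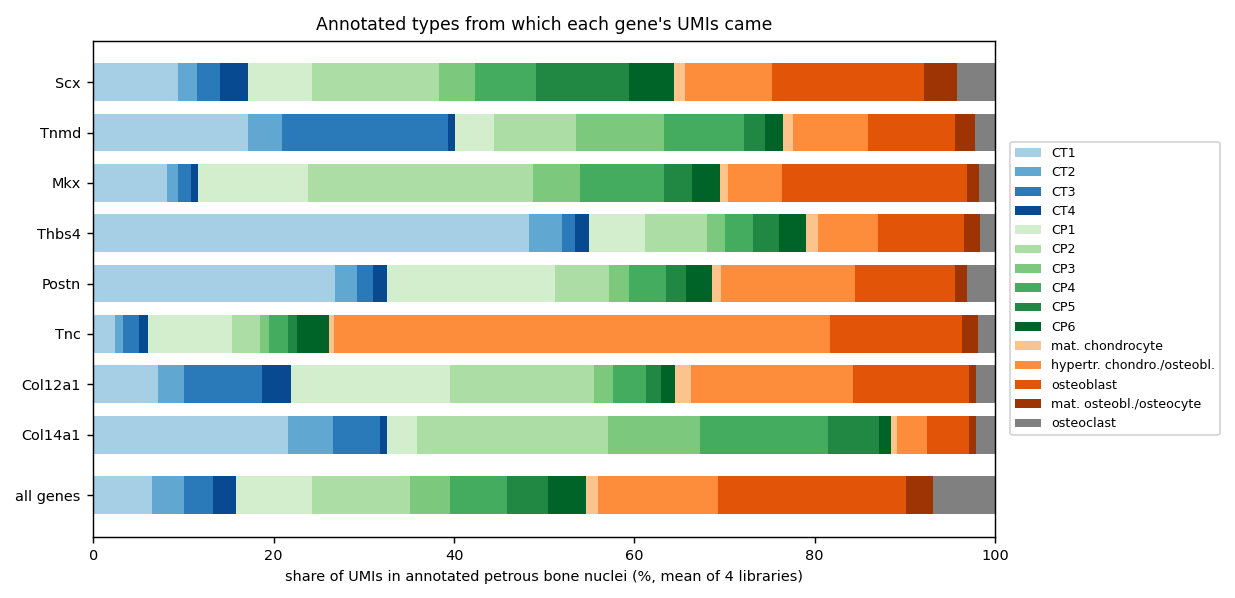
Share of each gene's UMIs (horizontal axis, percent, mean of 4 libraries) that came from each annotated PTB type (colours), with the share of all UMIs in the lowest bar. CT1 (lightest blue) takes 48.3% of Thbs4 and the hypertrophic class (bright orange) 55.0% of Tnc, against 6.50% and 13.3% of all UMIs.

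Across the 15 types, Pearson's r of mean log2(CPM + 1) between members was highest for Thbs4 and Postn (0.83) and for Tnmd and Col14a1 (0.74), and lowest for Tnc and Col14a1 (-0.58). These are descriptions over 15 types that share libraries and depth. Among the 15252 genes compared, those most like Thbs4 were Pi16, Dlk1 and Chodl, all highest in CT1, with r of 0.94, 0.94 and 0.93. Egfl6, Il33 and Bdnf were most like Tnmd (r of 0.90, 0.86 and 0.85). Among genes that do not overlap the member, Map1b and Clec11a stood nearest to Col12a1 (r of 0.95 and 0.94), Lrrc17 to Postn (0.89) and Twist2 to Col14a1 (0.91). In the same way Pros1 stood nearest to Tnc (0.91), Dync1i1 to Mkx (0.90) and Entpd5 to Scx (0.85).

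For 4 members a gene that overlaps them ranked first or second. These were Gm2350 for Mkx (r of 0.96, same strand), and on the opposite strand 8030451A03Rik for Tnc (0.96), 4930562D21Rik for Col12a1 (0.95) and Gm49257 for Col14a1 (0.94). Reads in the overlap of Mkx and Gm2350, which share a strand, cannot be told apart from these counts.

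Family relatives had other patterns. Of 20 listed relatives 19 were in the files, and 18 reached 5 CPM in at least 1 type, with the highest level in a CT type for 5, in a CP type for 6 and elsewhere for 7. Cnmd (chondromodulin), the closest relative of Tnmd, was highest in matured chondrocytes at 504 ± 182 CPM. Comp, a thrombospondin of cartilage and tendon, was also highest there (655 ± 238 CPM), while Thbs2 was highest in CT3 (368 ± 46.3 CPM) and Thbs3 in CT1 (68.1 ± 5.89 CPM). Tnxb, a tenascin of loose connective tissue, was highest in CT1 (83.1 ± 13.7 CPM) and Tnn in CP1 (89.5 ± 44.5 CPM). Col22a1, a collagen of tissue junctions, was highest in osteoblasts (1181 ± 110 CPM), and Tcf15, the relative of Scx, had means of at most 1.26 CPM in the types.

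Of the 30 other tendon and fibrous tissue genes, 17 were highest in a CT type, 3 in a CP type and 10 elsewhere. CT1 was highest for Eln (elastin, 651 ± 83.1 CPM), Fbn1 (fibrillin 1, 573 ± 57.1 CPM), Col6a3 (382 ± 28.5 CPM) and the keratocan gene Kera (7.27 ± 4.41 CPM). Prg4, which encodes the joint lubricant lubricin, was highest in CT2 (24.9 ± 6.39 CPM). Fmod (fibromodulin), a tendon and cartilage proteoglycan gene, was highest in matured chondrocytes (91.7 ± 58.2 CPM) and Six2 in CT3 (12.9 ± 3.01 CPM).

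Outside the annotation the members were counted in barcodes with at least 1000 detected genes, grouped by the marker list with the most UMIs. The 215 barcodes led by skeletal muscle markers had Tnmd at 19.2 CPM (9.34 to 32.4 CPM over the libraries) and Thbs4 at 18.3 CPM (0 to 34.1 CPM), from 24 and 25 UMIs. Postn was at 258 CPM there (148 to 364 CPM). The 656 barcodes led by Schwann glia markers had Col14a1 at 302 CPM (255 to 338 CPM) and Tnmd at 3.16 CPM. The 19639 barcodes led by mesenchyme markers had Tnmd at 7.59 CPM and Thbs4 at 3.38 CPM.

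In the 4 PF/F libraries 1 member stood high. Tnc reached 2150 ± 348 CPM in astroglia (1680 to 2497 CPM), 305 ± 18.2 CPM in the type RL.early and 15.6 to 146 CPM in the other types. Postn was at 126 ± 47.8 CPM in pericytes (28 UMIs) and 95.1 ± 22.7 CPM in meningeal nuclei, and Col12a1 at 112 ± 39.1 CPM in meningeal nuclei, 101 ± 7.97 CPM in GABA interneuron progenitors and 99.8 ± 22.8 CPM in RL.early. Scx, Tnmd and Thbs4 had means of at most 3.08 CPM in every PF/F type.

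Whether Tbx1 haploinsufficiency altered these genes was asked with edgeR's quasi-likelihood test on the UMIs summed per library, in 18 fits (all annotated nuclei, CT, CP and each of the 15 types). A gene was called at a Benjamini-Hochberg adjusted p under 0.05 over all genes of the fit and a change above 1.5-fold. Of the 7719 to 20250 genes tested per fit, 0 were called, which is 0% in each fit, and 0 of the 5 to 8 members that passed the filter on low counts. At an unadjusted p under 0.05 the fits held 141 to 352 genes each, and 9 of 122 pairs of a member and a fit. The share of all genes was 1.07% over all annotated nuclei and 0.894% in CT, and in CT3 it was 352 of 10876 genes. These fits share nuclei, so the pairs are not separate observations. None of the 18 fits held a term for batch, so the difference between batches counted as spread. With such a term, 1043 of 20250 genes had an unadjusted p under 0.05 in edgeR over all annotated nuclei, against 217 without it. The 0 calls therefore do not show that the genotypes were alike. DESeq2 called 0 genes in every fit. In simulated data with 200 genes changed by a log2 of 1, edgeR called 56% of them over all annotated nuclei, 33% in CT and 57% in osteoblasts. Changes of that size could therefore be missed. The simulated libraries shared no batch difference, and their spread was that fitted to genes of like level. These percentages are therefore not those of any single member. Fewer cells of a type, or less RNA in each, cannot be told apart in the sums over several types.

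Over all annotated nuclei Tnc was at 831 CPM in WT and 1024 CPM in Tbx1+/- mice of batch 1, and at 797 and 1101 CPM in batch 2. Both Tbx1+/- libraries lay above both WT libraries. This held for 13.9% of all pairs of a gene and a type, and the share of all genes in this sum was not counted. Mkx, the 1 other member without overlap in this sum, lay below. The log2 difference of Tnc was 0.38 ± 0.10 (SE), and with edgeR the unadjusted p was 0.00993 and the adjusted p 1.00. The hypertrophic class, which gave 55.0% of the Tnc UMIs, made up 12.6% of annotated nuclei in WT and 15.4% in Tbx1+/- mice of batch 1, and 11.7% and 15.7% in batch 2. The part of this share in the summed difference was not tested. Tnc had an unadjusted p under 0.05 in 6 of the 18 fits, among them 4 of the 15 types (CT1, CT2, CT4 and osteoclasts). The other fits were all annotated nuclei and CT, which hold nuclei of these types, so the 6 are not separate observations. The share of all genes with such a p was 1.07% over all annotated nuclei and 0.894% in CT. In the 4 types it was 207 of 13488 genes (CT1), 231 of 12085 (CT2), 276 of 10199 (CT4) and 288 of 13191 (osteoclasts). Tbx1+/- was above WT in both batches for Tnc in 11 of 15 types, while this held for 25.2% of all pairs of a gene and a type. Osteoclasts were among the 11, with 221 against 254 CPM in the first batch and 220 against 307 CPM in the second.

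Within the hypertrophic class the log2 difference of Tnc was 0.20 ± 0.12 (edgeR, unadjusted p of 0.138, adjusted p of 1.00), on a level 15.4 times that of osteoclasts. In CT4 the log2 difference was 0.72 ± 0.22 (edgeR, unadjusted p of 0.00819, adjusted p of 0.999).

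Postn was at 348 and 266 CPM in WT and Tbx1+/- mice of batch 1 and at 122 and 75.1 CPM in batch 2 over all annotated nuclei. The log2 difference was -0.47 ± 0.72 in a fit without a term for batch (edgeR, unadjusted p of 0.543, adjusted p of 1.00). Tbx1+/- lay below WT in both batches, but the batches differed by more than the genotypes. The same order within both batches was seen in 11 of 15 types, osteoclasts included, against 23% of all pairs of a gene and a type. In no type did both Tbx1+/- libraries lie below both WT libraries. Leaving out 1 library changed the call in 2 types, in edgeR fits that assume the lone library to vary like the pair of the other genotype, which were 2 of 491 pairs of a member and a fit (0.0955% of all pairs of a gene and a fit). Without the Tbx1+/- library of batch 1 Postn in CP5 had a log2 difference of -1.57 (adjusted p of 0.000318), and without the WT library of batch 2 Postn in CT3 had -0.93 (adjusted p of 0.0147), both of which compare genotypes over unequal batches. The CP5 fit called 17 genes, with 16 lower, among them the muscle genes Acta1, Mylpf and Tnnc2 and 2 of the 6 skeletal muscle markers, whose summed level in CP5 was 160 CPM in WT and 142 CPM in Tbx1+/- mice of the first batch, against 60.0 CPM (WT) and 40.8 CPM (Tbx1+/-) in the second. The CT3 fit called 44 genes, with 36 lower, and all 4 erythroid markers were among these. Their sum in CT3 was 2577 CPM in the WT library of batch 1, and 566 CPM in Tbx1+/- mice of that batch, against 450 CPM (WT) and 373 CPM (Tbx1+/-) in the second. The part of muscle and erythroid RNA in the Postn values was not tested.

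Batch as a term in the model changed the call of 1 member in 1 fit. With this replicate block, Postn in CT had a log2 difference of -0.81 ± 0.14 (edgeR, adjusted p of 0.0407), against -0.65 ± 0.82 without it. In CT 24 of 15889 genes were called with the block, against 0 without it. Bpifa1 was among the 24, and the block also called it, lower in Tbx1+/- mice, in CT2, CT4 and CP2 to CP6. It was called with the block in CT1, CT3, matured chondrocytes, matured osteoblasts/osteocytes and osteoclasts as well. In the single CT types the blocked log2 differences of Postn were -0.35 in CT1, -0.05 in CT2, -0.38 in CT3 and -0.21 in CT4, none called (adjusted p of 1.00, 1.00, 0.775 and 1.00 in edgeR), and that in osteoclasts was -0.39 (adjusted p of 0.813). CT1, the type with most Postn, made up 64.5% of CT nuclei in WT and 56.5% in Tbx1+/- mice of batch 1, and 31.5% and 15.2% in batch 2. The part of this make-up, and of free RNA, in the CT value was not tested. Over all annotated nuclei, Postn had a blocked log2 difference of -0.54 ± 0.10 (edgeR, unadjusted p of 0.00161, adjusted p of 0.899). Col14a1 had -0.32 ± 0.09 (unadjusted p of 0.00958, adjusted p of 0.899) and Tnc had 0.38 ± 0.11 (unadjusted p of 0.013, adjusted p of 0.908). No other member had an unadjusted p under 0.05 there. That fit called 0 of 20250 genes, and 1043 had an unadjusted p under 0.05.

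**Figure D3:**
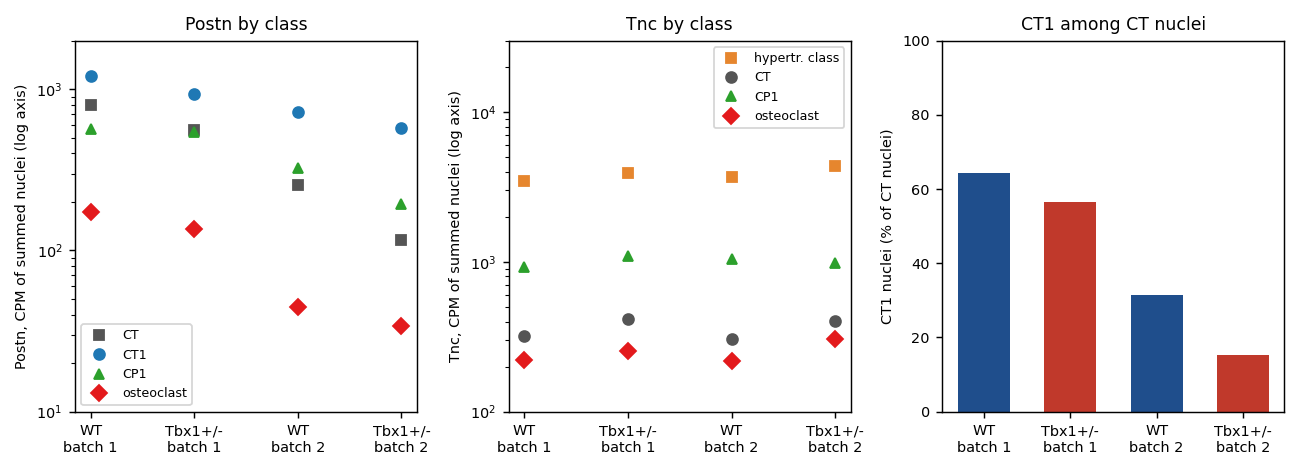
Postn (left) and Tnc (middle) in CPM of summed nuclei on log axes, and CT1 nuclei as a percent of CT nuclei (right), in the 4 PTB libraries (horizontal axes). Postn in osteoclasts goes from 174 to 33.9 CPM and CT1 from 64.5% to 15.2% of CT nuclei, while Tnc is higher in Tbx1+/- than in WT of the same batch in CT and osteoclasts.

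Of the other members, 0 were called in any of the 18 fits. Over all annotated nuclei the log2 differences were 0.11 ± 0.36 for Scx, -0.27 ± 0.44 for Tnmd, -0.11 ± 0.09 for Mkx, -0.39 ± 0.76 for Thbs4, -0.14 ± 0.12 for Col12a1 and -0.31 ± 0.19 for Col14a1, each with an adjusted p of 1.00 in edgeR. Among the 8 members 6 lay below 0, and the median was -0.20, against -0.00 over all genes tested. In this sum Tbx1+/- was below WT in both batches for 6 of the 8 members (26% of all genes) and above it in both for the other 2, Scx and Tnc (23.9% of all genes). CT nuclei made up 20.4% of annotated nuclei in WT and 17.9% in Tbx1+/- mice of batch 1, and 17.6% and 12.1% in batch 2. The part of this make-up in the summed differences was not tested. Over the types, Tbx1+/- was below WT in both batches in 41 of 98 pairs of a member and a type (23% of all pairs of a gene and a type), 11 of them Postn, and above it in 24 (25.2% of all pairs), 11 of them Tnc. The members of a type share their libraries, so the pairs are not independent. Without regard to batch, both Tbx1+/- libraries lay below both WT libraries in 15 of the 98 pairs (12.8% of all pairs) and above in 16 (13.9% of all pairs), 9 of the 16 being Tnc.

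The log2 differences of largest size in single types were those of Tnmd in matured osteoblasts/osteocytes (-1.21 ± 0.59, edgeR, unadjusted p of 0.0674), of Scx in osteoblasts (0.86 ± 0.40, unadjusted p of 0.0739) and of Scx in the hypertrophic class (-0.83 ± 0.47, unadjusted p of 0.120), each with an adjusted p of 1.00 or 0.999. The genotypes did not overlap in these 3 pairs, which rest on 31, 75 and 45 UMIs over the 4 libraries. They were picked for their size from 98 pairs, so the lack of overlap follows in part from that choice. Over all pairs of a gene and a type, Tbx1+/- lay below WT without overlap in 12.8% and above in 13.9%.

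Tnmd and Mkx had log2 differences above 0 in CT1 and below 0 in CT3. Tnmd had a log2 difference of 0.76 ± 0.38 in CT1 (edgeR, unadjusted p of 0.0689) and -0.63 ± 0.26 in CT3 (edgeR, unadjusted p of 0.0356), and Mkx had 0.47 ± 0.18 (unadjusted p of 0.0229) and -0.46 ± 0.32 (unadjusted p of 0.172), all with an adjusted p of 1.00. Whether the difference between CT1 and CT3 exceeded the spread was not tested. Mkx in CT1 was at 103 and 91.6 CPM in the WT libraries and at 137 and 134 CPM in the Tbx1+/- libraries, which did not overlap. In CT2 Mkx was at 44.0 and 39.6 CPM in WT and at 28.9 and 19.6 CPM in Tbx1+/- libraries, also without overlap, with a log2 difference of -0.79 ± 0.28 (edgeR, unadjusted p of 0.0213, adjusted p of 1.00). In CT4 it was at 28.9 and 27.3 CPM in WT and 26.4 and 20.2 CPM in Tbx1+/- libraries (-0.31 ± 0.32, unadjusted p of 0.345, adjusted p of 0.999). Over the 15 types, Mkx in Tbx1+/- mice lay below WT without overlap in 5 and above WT in 4. Among all pairs of a gene and a type, 12.8% lay below without overlap and 13.9% above. The Tbx1+/- library of batch 2 had only 118 CT1 nuclei, against 1315, 878 and 332 in the others.

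**Figure D4:**
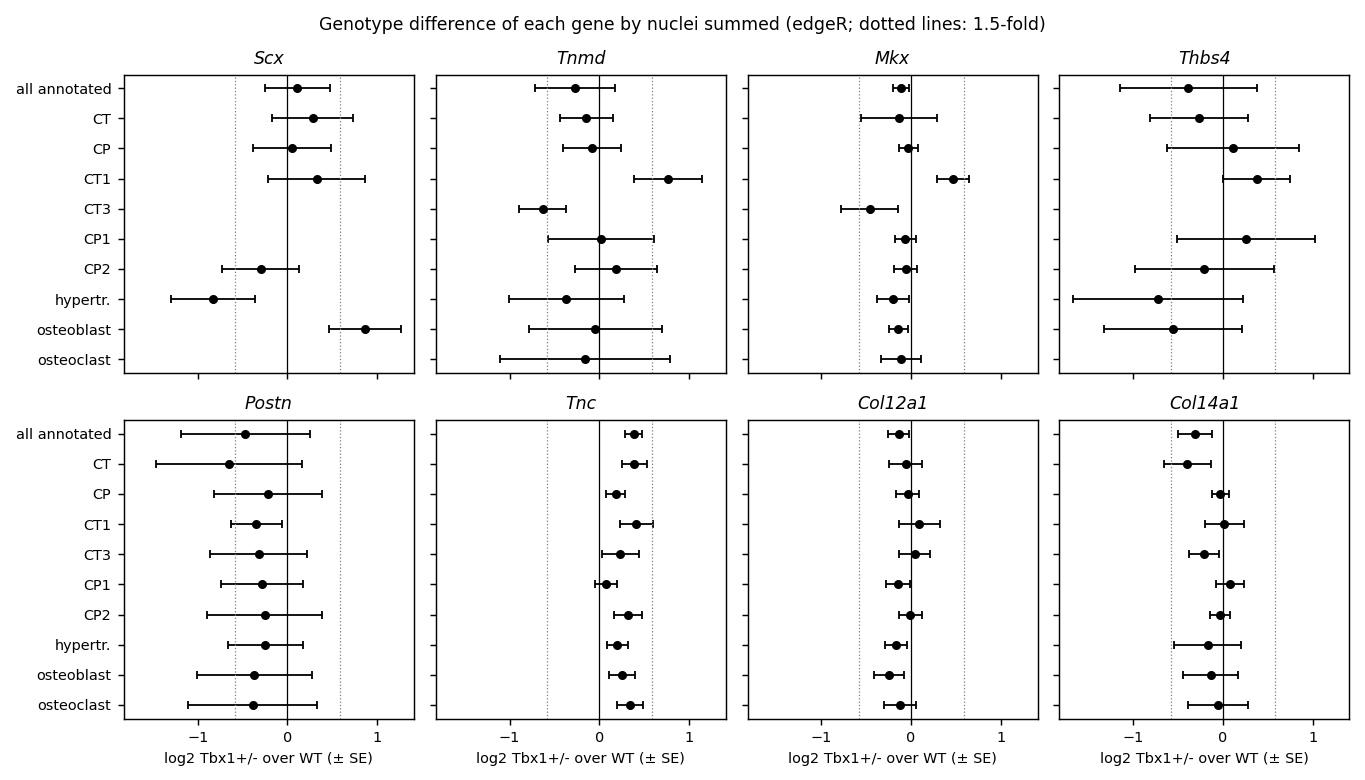
Log2 difference of Tbx1+/- over WT (horizontal axes, points with SE bars, edgeR) for each gene in 10 of the 18 sums of nuclei (vertical axes), with dotted lines at 1.5-fold; a missing point is a gene that did not pass the filter on low counts. None was called. Tnc lies to the right of 0 and Postn to the left in the sums drawn, but over the 18 sums Tnc was above 0 in 16 and below 0 in 2 (CP5 and matured osteoblasts/osteocytes), and Postn below 0 in 17 and above 0 in 1 (matured chondrocytes).

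The genotype difference was also compared between classes of the same libraries, with the library as a block. Between CT and CP, 0 of 18021 genes had an adjusted p under 0.05 in edgeR (0%), 466 had an unadjusted p under 0.05 and DESeq2 called 0. The log2 difference in CT minus that in CP was -0.50 ± 0.20 for Postn (unadjusted p of 0.0380, adjusted p of 1.00) and -0.40 ± 0.20 for Col14a1 (unadjusted p of 0.0813, adjusted p of 1.00). Between CT and osteoblasts 0 of 16844 genes were called (0%) and 429 had an unadjusted p under 0.05, with DESeq2 again at 0. Without the Tbx1+/- library of batch 1, 262 of 18592 genes passed between CT and CP, among them Postn (-0.80, adjusted p of 0.00491), Mkx (-0.94, adjusted p of 0.00561) and Col14a1 (-0.71, adjusted p of 0.00889), each by edgeR. Over the fits between classes with 1 library left out, 3 of 64 pairs of a member and a fit passed (0.183% of all pairs of a gene and a fit). CT1, which among the CT types had the highest mean level of these 3 members, made up 15.2% of CT nuclei in the Tbx1+/- library that remained and 64.5% and 31.5% in the WT libraries. The part of this make-up in the values between CT and CP was not tested.

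Of the family relatives, 19 passed the filter over all annotated nuclei, with 13 log2 differences below 0, a median of -0.07 and 0 called. Of the 30 other fibrous tissue genes 22 lay below 0 and 0 were called, at a median of -0.13. When 1 library was left out, 8 of them were called in 16 of 1935 pairs of a gene and a genotype fit (0.0955% of all such pairs of a gene and a fit), in both directions, and Eln also between CT and CP (0.183% of all pairs in the fits between classes). These fits share libraries, so the calls are not separate observations. Eln in CP5 was at -1.77 without the Tbx1+/- library of batch 1 (edgeR, adjusted p of 0.000725), and Col1a1 was at -0.99 in matured osteoblasts/osteocytes without the WT library of batch 2 (adjusted p of 4.34e-06) and at 0.72 in osteoclasts without the WT library of batch 1 (adjusted p of 2.28e-05). The CP5 fit is the one that called muscle genes with Postn, and the osteoclast fit called 206 genes, 65 ribosomal protein and 8 mitochondrial genes among them, all of these higher. The fit of matured osteoblasts/osteocytes called 24 genes, 5 of them mitochondrial and lower. The part of these signs of other cells and of RNA quality was not tested. Without the filter on low counts 1 was called, Col1a1 between CT and osteoblasts (0.43, adjusted p of 0.0245), in a fit that called 37 of 26033 genes. With the replicate block 1 relative was called, Col22a1 in osteoclasts, at a log2 difference of 0.89 ± 0.14 (edgeR, adjusted p of 0.0325), against 0.90 ± 0.15 without the block (adjusted p of 1.00). That blocked fit called 3 of 13191 genes. Without the WT library of batch 1, 2 relatives were called (2 of 1183 pairs over all libraries left out, against 0.0955% of all pairs), Col22a1 (0.93, adjusted p of 0.00283) and Thbs1 (0.88, adjusted p of 0.0171), both in osteoclasts.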

How the data were processed

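Single-nucleus libraries of PTB and PF/F were made with 10x Genomics 3′ chemistry. The count values, as deposited, are whole UMIs of each gene in each barcode, which came from Cell Ranger 7.0.0 (submitters' processing notes) run by the authors in intron mode on mm10, before their later limits on nuclei and their SoupX correction for free RNA. Their annotation, made by label transfer and curation of Louvain clusters, gave the types. UMIs were summed per library and type in Python 3.11.15 (numpy 2.4.6, pandas 2.3.3). The quasi-likelihood test of edgeR 4.0.16, after filterByExpr and with TMM normalization, compared genotypes on these sums, with DESeq2 1.42.0 as an alternative (R 4.3.3), for types with at least 20 nuclei in every library, after the script had been tested on simulated data. SEs were derived from the log2 difference and the F statistic, as their ratio with the F under a square root.

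The members and gene lists were chosen with earlier results of these data known. The 8 members and 3 listed families of relatives, other fibrous tissue genes and Tbx1 are named, with up to 3 genes most like each member by Pearson's r of mean log2(CPM + 1). Coordinates are those of GENCODE for GRCm38, where 32158 of 32285 gene identifiers were found. UMI counts carry counting error, largest for Scx, Thbs4 and Tnmd.

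Libraries with the same replicate number were one batch of animals, as the study's methods describe. Within batches, the deviations of WT and Tbx1+/- libraries from their genotype means correlated across genes at 0.55 over all annotated nuclei, 0.51 in CT and 0.48 in CP and 0.39 in osteoblasts. Only 1 library per genotype and batch exists, so that p-values measure the spread between pools. In the fits without the block that spread includes the difference between batches. The tests were repeated with DESeq2, with RLE scaling, without filtering of low counts, with the replicate block, nuclei with at least 2000 detected genes, no nuclei of the top 8% of UMIs (doublets were not called), and leaving out each library in turn.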

Additional observations from a re-analysis of the deposited data

How the results depend on the processing

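The type with the highest level of each member was kept in 56 of 56 alternative settings and libraries left out, and 0 of 56 alternative levels moved by more than 1 SD. Leaving out 1 of 4 libraries cannot move their mean by 1 SD, so the levels with a library left out could not have counted as moved. For 25 log2 differences of the members, 232 alternatives were listed, of which 24 changed sign and 4 passed the threshold. Over every fit and alternative there were 6 calls of members, of Postn in CP5, CT3 and CT and of Postn, Mkx and Col14a1 between CT and CP, and 5 of these came from leaving out 1 library (2 of 491 pairs of a member and a genotype fit against 0.0955% of all pairs, and 3 of 64 between classes against 0.183%). With the replicate block the genes called were 24 in CT, 22 in CT3, 18 in matured chondrocytes, 14 in CT1, 4 in matured osteoblasts/osteocytes, 3 each in CT4 and osteoclasts, 2 in CP2 and 1 each in CT2, CP3, CP4, CP5 and CP6, Postn in CT among them (-0.81), and the call of no other member changed. Without the filter on low counts they were 17 in the hypertrophic class, 16 in CT1, 11 in CT3, 10 in matured chondrocytes, 9 in matured osteoblasts/osteocytes, 8 in CT2, 5 each in CP1, CP4 and CP6, 4 each in CP3 and CT4, 2 in CP5, 1 in CT, 20 between CT and CP and 37 between CT and osteoblasts. Col14a1 in CT1 went from 0.01 to -0.021 without the filter and to -0.00099 with the block. RLE factors and DESeq2 called 0 genes in every fit.

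Leaving out 1 library in turn gave 0 to 117 genes in CP1, 0 to 12 in CP2, 0 to 41 in CP3, 0 to 3 in CP4, 3 to 78 in CP5, 0 to 63 in CP6, 1 to 8 in CT1, 0 to 6 in CT2, 1 to 66 in CT3, 2 to 6 in CT4, 6 to 27 in matured chondrocytes, 0 to 2 in the hypertrophic class, 0 to 33 in osteoblasts, 1 to 24 in matured osteoblasts/osteocytes, 0 to 206 in osteoclasts, 0 to 262 between CT and CP and 0 to 1 between CT and osteoblasts. Log2 differences over all annotated nuclei ran from -0.24 to 0.60 for Scx, -0.77 to 0.38 for Tnmd, -1.64 to 0.68 for Thbs4 and -1.65 to 0.50 for Postn. They ran from -2.17 to 0.39 for Postn in CT, -0.79 to 0.067 for Postn, -0.10 to 1.12 for Thbs4 and -0.25 to 0.22 for Col14a1 in CT1, -0.16 to 0.048 for Mkx in CP2 and -0.085 to 0.18 for Col12a1 in CT3. Between CT and CP they ran from -0.27 to 0.014 for Tnmd, -0.94 to 0.41 for Mkx, -0.76 to 0.60 for Thbs4 and -0.25 to 0.19 for Col12a1. Each such fit sets 1 library against 2, so that batch and genotype are partly confounded, and the cause of the changes was not tested.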

Other observations

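Beyond the annotation, barcodes led by chondrocyte markers had Scx at 16.9 CPM (4.35 to 34.5 CPM over the 4 PTB libraries, 28 UMIs in 148 barcodes), with Tnmd at 3.15 CPM and Thbs4 at 2.57 CPM. The 19639 barcodes led by mesenchyme markers had Scx at 4.70 CPM. In CT1, nuclei with a Thbs4 UMI had Tnmd at 186 CPM and those without at 18.1 CPM, while Tnc was at 374 and 353 CPM and higher in 2 of 4 libraries. In CP2, nuclei with Mkx had Tnmd at 5.82 CPM and those without at 9.34 CPM, lower in 4 of 4 libraries. Of 16 groups of 4 libraries, 0 held a value far from the others by Dixon's rule.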
